A study of Cricetulus griseus with 16 samples.

Results

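Genes that the tumour suppressor p53 is known to switch on were followed in heated Chinese hamster cells. Of 10 such genes looked up by name (Mdm2, Ccng1, Cdkn1a, Btg2, Gadd45a, Plk2, Plk3, Aen, Sesn1 and Zmat3), 9 were found among the 20824 genes of the count table, and Ccng1, a cyclin that acts in the p53 feedback loop, was not found under its name and was not analysed here. The set was chosen with earlier results of these data in view, partly because Aen and Plk2 were lower at 40 °C, so the values of these genes at 40 °C against 37 °C, and in every other comparison that uses the 40 °C libraries, are given as a description with no test.

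p53 is a transcription factor that is kept low by the ubiquitin ligase Mdm2 and accumulates when DNA is damaged or cells are otherwise stressed. Its targets include Cdkn1a, which encodes the cyclin-dependent kinase inhibitor p21 and arrests the cell cycle, genes of DNA repair and apoptosis, genes of metabolism and redox balance, and Mdm2 itself, which closes a negative feedback loop. CHO cells of the line CCL-61 carry a missense change in p53, and many of these genes also answer to other transcription factors. p53 activity itself was not measured here.

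CHO cells, an ovary-derived line of the Chinese hamster, were grown from 1 stock line (CCL-61), seeded 24 h ahead, and either kept at 37 °C without treatment or heated. The 3 heat treatments were 1 h at 40 °C, 6 h at 40 °C and 1 h at 42.5 °C. All 4 groups share the line, medium and serum, no group carries a genetic change made for the study, and each has 4 biological repeats lettered A to D. Total RNA was made into TruSeq libraries and sequenced in pairs of reads. Between 10504192 and 14668365 reads per library were counted on genes, and the median of the 4 libraries was 12430016 in the unheated group, 12759812.5 after 1 h and 12573465 after 6 h at 40 °C and 10980907.5 after 42.5 °C. Levels are given as CPM, the usual unit of counts divided by the library's total, with the totals scaled by the TMM method of edgeR, and 3 counts corresponded to between 0.204 and 0.295 CPM. With no transcript lengths used, levels are compared between samples and never between genes.

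The label of the cells was looked at through marker genes. Vim, the intermediate filament of mesenchymal cells, stood at 2241 ± 68.7 CPM (SD, n = 3) at 37 °C and S100a6, a calcium-binding protein of such cells, at 1199 ± 97.6 CPM (SD, n = 3). The ovarian markers Foxl2, Fshr and Cyp19a1 had 0 counts in every library compared, Amh stood at 3.07 ± 1.23 CPM at 37 °C (SD, n = 3), and Epcam and Ptprc, markers of epithelia and blood cells, had at most 1 count in a library. Cdh1, the epithelial cadherin, was at 2.92 ± 1.17 CPM at 37 °C (SD, n = 3). Of the mesenchymal markers, Tagln stood at 10.8 ± 1.45 CPM (SD, n = 3), and Col1a1, a fibrillar collagen, had 0 to 2 counts in a library. The markers of each type were thus uneven, with 3 of the ovarian ones at 0.

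The control library 37 °C replicate D stood apart from the other controls. Its log2 CPM correlated with those of replicates A, B and C with Pearson's r between 0.972 and 0.975 across 10390 genes, which are not independent replicates, whereas the r among A, B and C was 0.996 to 0.997. Of the 10390 genes, 1873 differed in replicate D by 1.5-fold or more from the mean of A to C, and 110 to 132 did so in A, B or C set against the others. Among the p53 targets, Zmat3 was at 3.62 CPM in replicate D and at 10.4 ± 0.75 CPM in A to C (SD, n = 3), Mdm2 at 126 against 173 ± 3.35 CPM, and Cdkn1a at 28.9 against 40.8 ± 9.04 CPM. Plk2 was at 102 CPM in replicate D and 103 ± 3.68 CPM in A to C. The study left this library out, and so do the values below unless all 4 controls are named.

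Heat exposure itself was visible in genes of heat shock proteins. Against 37 °C, Hsph1 rose on the log2 scale by 1.08 after 1 h at 40 °C, by 1.21 after 6 h there and by 2.96 at 42.5 °C, and Dnajb1 by 1.63, 0.65 and 3.79 (edgeR adjusted p of 0.00441, 1.01e-05 and 4.19e-08 for Hsph1 and of 0.00334, 0.000112 and 4.75e-09 for Dnajb1). The mRNA of p53 (Trp53, ENSCGRG00001012952) was at 83.7 ± 2.82 CPM at 37 °C (SD, n = 3) and at 87.2 ± 4.06, 84.8 ± 4.07 and 85.9 ± 2.81 CPM in the heated groups (SD, n = 4 each). Its log2 fold changes of 0.07, 0.02 and 0.04 did not pass the test (adjusted p of 0.59, 0.777 and 0.528). Protein level, modification and localization of p53 were not measured in these data.

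Groups were compared by the quasi-likelihood test of edgeR across all genes with enough counts, and a gene was called changed at a Benjamini-Hochberg adjusted p under 0.05 if it also differed by 1.5-fold or more in either direction. All 9 genes passed the filter on low counts in each of the 6 comparisons. Plk2 and Aen, which helped to choose the set by their values at 40 °C against the same controls, are left out of the counts. At 42.5 °C for 1 h, 1 of the other 7 p53 targets was called, Btg2 as higher, where 7.51% of the 10470 genes tested were called. By direction, 4.68% of all tested genes were called lower and 2.83% higher. By adjusted p alone 1 of the 7 passed, also Btg2 (43.1% of all tested genes had an adjusted p under 0.05, 20.8% higher and 22.3% lower).

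**Figure D1:**
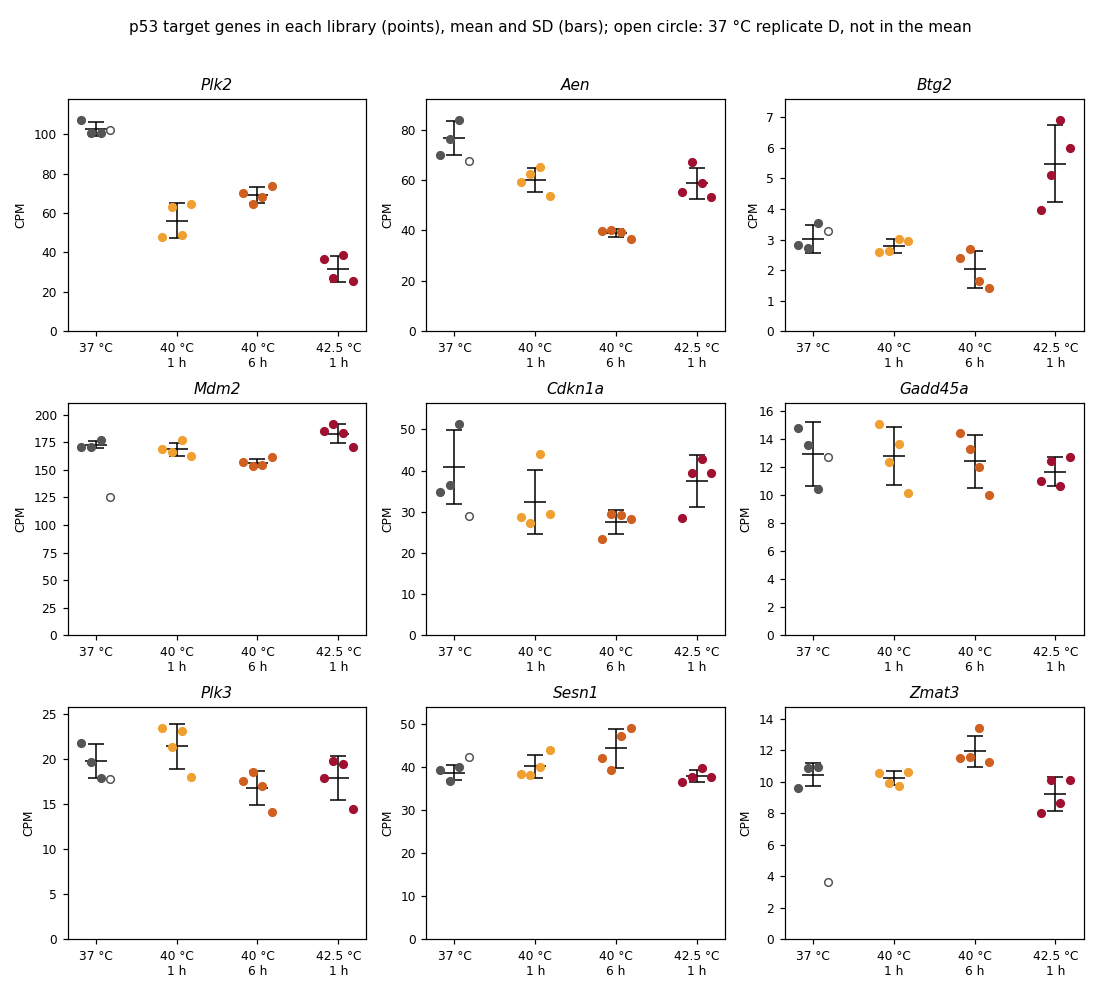
Level of the 9 p53 target genes (CPM, linear axis from 0, a scale of its own for each gene) in every library of the 4 groups, with the mean and SD as bars (n = 3 at 37 °C, n = 4 in the heated groups) and 37 °C replicate D as an open circle outside the mean. Plk2 lay lowest in the 4 libraries at 42.5 °C, Aen in the 4 libraries at 40 °C for 6 h, and Btg2 highest in the 4 libraries at 42.5 °C.

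Among these 7 targets, edgeR called 0 after 1 h at 40 °C, where 0.334% of 10494 genes were called (0.276% higher, 0.0572% lower), and 0 after 6 h, where 3.11% of 10499 genes were (1.45% higher, 1.66% lower). At an unadjusted p under 0.05 there were 1 and 5 of these 7. The share of all tested genes at an unadjusted p is not given here, so nothing is read from such counts. The Wald test of DESeq2 also called 0 in both comparisons, beside 31 of 10494 and 267 of 10499 genes. By adjusted p under 0.05 without the fold, 0 of the 7 passed at 1 h, where 1.64% of all tested genes did (1.07% higher, 0.572% lower), and 2 passed at 6 h, Mdm2 and Cdkn1a, both lower, where 29.4% of all tested genes passed, 14.7% higher and 14.8% lower.

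Mdm2 (ENSCGRG00001022261) encodes the ubiquitin ligase that marks p53 for degradation. At 37 °C it was at 171, 171 and 177 CPM in replicates A, B and C. At 40 °C it was at 169, 166, 177 and 163 CPM after 1 h and at 157, 153, 155 and 161 CPM after 6 h, and at 42.5 °C at 186, 191, 184 and 171 CPM. The 4 libraries at 40 °C for 6 h lay below all other libraries compared, and the other groups overlapped.

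Against 37 °C, Mdm2 was 1.10-fold lower at 40 °C for 6 h (log2 fold change -0.14, SE 0.045, adjusted p = 0.0277), a small change that passed by adjusted p in 9 of 15 fits. It did not pass with all 4 controls (-0.04, adjusted p = 0.82) or without 37 °C replicate A, B or C or 40 °C for 6 h replicate B or C (adjusted p of 0.0565 to 0.107). Its log2 fold change was -0.03 after 1 h at 40 °C (95% interval -0.12 to 0.06) and at 42.5 °C 0.08 (-0.01 to 0.18), and neither passed. Between the heated groups it was higher at 42.5 °C than at 40 °C for 6 h, with a log2 difference of 0.22 (SE 0.045, adjusted p = 0.000805).

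Cdkn1a (ENSCGRG00001016153), the gene of p21, had a level of 34.7, 36.5 and 51.2 CPM at 37 °C. It was at 28.6, 27.3, 44.0 and 29.5 CPM after 1 h at 40 °C, at 23.3, 29.5, 29.3 and 28.1 CPM after 6 h, and at 28.4, 39.5, 42.9 and 39.4 CPM at 42.5 °C. All 4 libraries at 40 °C for 6 h lay below the 3 controls, and the other heated groups overlapped with them.

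After 6 h at 40 °C Cdkn1a was 1.47-fold lower (log2 fold change -0.55, SE 0.11, adjusted p = 0.0017), just short of the fold threshold. With all 4 controls, replicate D being at 28.9 CPM, it did not pass (-0.46, adjusted p = 0.0956). Leaving out 1 library at a time gave log2 fold changes between -0.65 and -0.36, and leaving out 37 °C replicate A or B brought it past both thresholds. Cdkn1a did not pass after 1 h at 40 °C (-0.33, 95% interval -0.65 to -0.01, adjusted p = 0.328) or at 42.5 °C (-0.11, -0.39 to 0.17). It was higher at 42.5 °C than at 40 °C for 6 h with a log2 difference of 0.44 (SE 0.11, adjusted p = 0.00277), below the fold threshold.

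Btg2 (ENSCGRG00001018732) encodes an antiproliferative protein that recruits the machinery of mRNA deadenylation. It was at 2.82, 2.71 and 3.55 CPM at 37 °C and at 2.58, 2.62, 3.02 and 2.95 CPM after 1 h at 40 °C. After 6 h at 40 °C it was at 2.38, 2.70, 1.65 and 1.40 CPM, and at 42.5 °C at 3.96, 5.11, 6.90 and 5.98 CPM. The 4 libraries at 42.5 °C lay above every other library, replicate D (3.27 CPM) included, on counts of 44 to 76 reads at 42.5 °C and of 18 to 41 reads elsewhere.

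Btg2 rose 1.83-fold at 42.5 °C against 37 °C (log2 fold change 0.87, SE 0.19, adjusted p = 0.00194), and 0.84 with all 4 controls (adjusted p = 0.0128). It was called in 15 of 15 fits, which are the reported one and those with another setting or with 1 library left out. With each library left out in turn the log2 fold change was between 0.76 and 1.00. The direct comparisons between heated groups, which share the libraries at 42.5 °C, gave 1.96-fold more than at 40 °C for 1 h (0.97, SE 0.17, adjusted p = 0.000501) and 2.70-fold more than at 40 °C for 6 h (1.43, SE 0.21, adjusted p = 4.17e-05). At 40 °C the log2 fold changes against 37 °C were -0.10 after 1 h (95% interval -0.47 to 0.26) and -0.56 after 6 h (-1.04 to -0.09, adjusted p = 0.0674), neither past the threshold, though without 40 °C for 6 h replicate B the latter was called (-0.74, adjusted p = 0.0262). A bulk library does not tell a change in some cells from one in every cell, for Btg2 as for the other genes.

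Gadd45a (ENSCGRG00001022826), which takes part in growth arrest and DNA repair, did not pass in any of the 6 comparisons. Its mean was 12.9 ± 2.28 CPM at 37 °C (SD, n = 3), 12.8 ± 2.07 CPM after 1 h at 40 °C, 12.4 ± 1.89 CPM after 6 h there and 11.7 ± 1.02 CPM after 42.5 °C (SD, n = 4 each). All groups overlapped. The 95% intervals of its log2 fold change against 37 °C were -0.31 to 0.27, -0.35 to 0.21 and -0.41 to 0.10, all within a change of 1.5-fold.

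Plk2 (ENSCGRG00001022259) encodes a polo-like kinase that acts in centriole duplication and is also an early response gene to serum. It was at 107, 101 and 101 CPM at 37 °C. After 1 h at 40 °C its level was 48.0, 63.1, 48.7 and 64.6 CPM, and after 6 h 70.3, 64.5, 67.9 and 73.7 CPM. At 42.5 °C it was at 36.4, 26.8, 38.5 and 25.4 CPM. All heated libraries lay below all controls, and the libraries at 42.5 °C lay below all others.

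The mean of Plk2 was 103 ± 3.68 CPM at 37 °C (SD, n = 3), and in the heated groups 56.1 ± 8.95 after 1 h and 69.1 ± 3.88 after 6 h at 40 °C and 31.8 ± 6.61 after 42.5 °C (SD, n = 4 each). At 40 °C this was 1.83-fold lower after 1 h (log2 fold change -0.87, SE 0.087) and 1.48-fold lower after 6 h (-0.57, SE 0.055), the values that helped to choose the set, and all 4 controls gave -0.87 and -0.57. At 42.5 °C, in a comparison that shares with the choice of the gene its control libraries, Plk2 fell 3.24-fold (-1.70, SE 0.0999, adjusted p = 8.24e-09), or -1.69 with all 4 controls (adjusted p = 6.66e-05). This call held in 15 of 15 fits, and with each library left out the log2 fold change was between -1.79 and -1.59.

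The values of Plk2 between heated groups are a description, since they use the 40 °C libraries by which the gene was chosen. At 42.5 °C it was 1.77-fold lower than at 40 °C for 1 h (-0.83, SE 0.13) and 2.19-fold lower than at 40 °C for 6 h (-1.13, SE 0.10), with no overlap. After 6 h at 40 °C it was 1.23-fold higher than after 1 h (0.30, SE 0.086), and the 2 groups overlapped by 1 library.

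**Figure D2:**
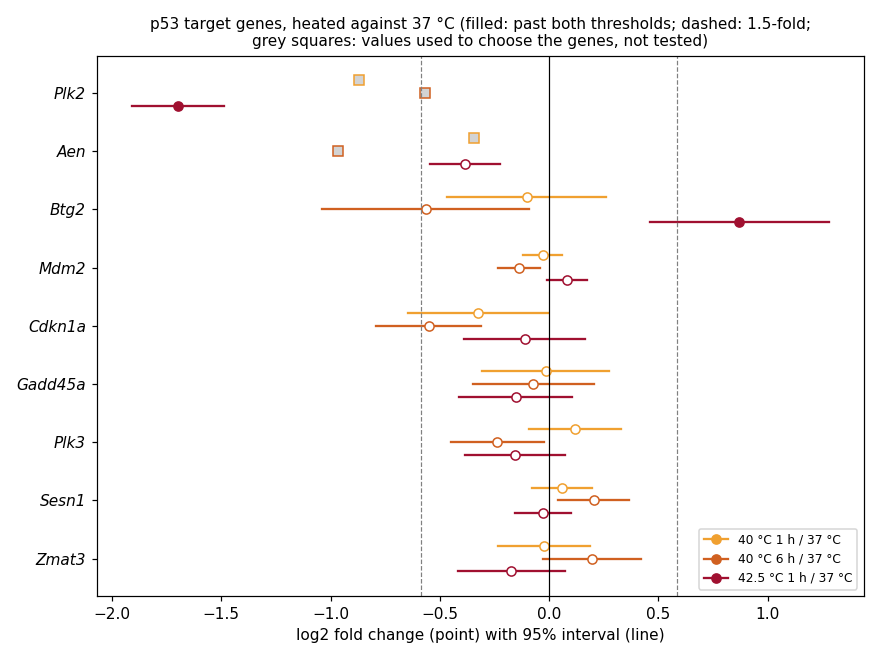
Log2 fold change of each p53 target gene in the 3 heated groups against 37 °C replicates A to C (points) with its 95% interval (lines), where filled points passed both thresholds, dashed lines mark 1.5-fold, and grey squares are the values of Plk2 and Aen at 40 °C that helped to choose the genes and were not tested. At 42.5 °C Plk2 lay at -1.70 and Btg2 at 0.87, and the other 7 genes lay between the dashed lines.

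Plk2 also varied among the libraries of a heated group, and there it went with the genes of heat shock proteins. The summed CPM of Hsph1, Dnajb1 and Hspb1 was 1127 and 1124 in replicates A and C at 40 °C for 1 h and 592 and 708 in replicates B and D, and Plk2 was at 48.0 and 48.7 CPM in A and C and at 63.1 and 64.6 CPM in B and D. At 42.5 °C the sum was 3743 and 4840 in B and D and 2529 and 2239 in A and C, and Plk2 was at 26.8 and 25.4 CPM in B and D and at 36.4 and 38.5 CPM in A and C. At 40 °C for 6 h the sum was highest in B (1331) and Plk2 lowest there (64.5 CPM).

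After subtracting each group's mean, log2 Plk2 and the log2 sum correlated with Pearson's r = -0.92 over the 12 heated libraries, which share their depth and scaling within a library. For the other 8 targets r was between -0.34 (Sesn1) and 0.59 (Gadd45a). Of 8483 genes with a mean of at least 10 CPM, 1 had an r this low or lower, Plk2 itself. The relation was looked for after the levels had been seen and is a description, and its cause was not tested.

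**Figure D3:**
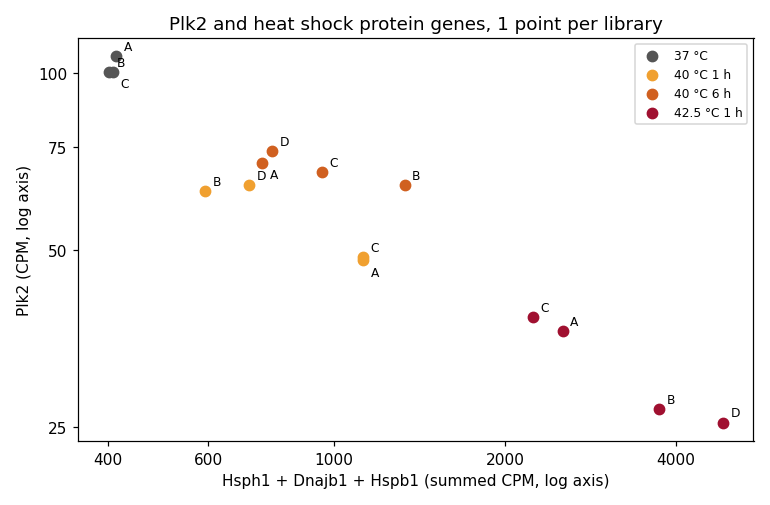
Plk2 (CPM, log axis) against the summed CPM of Hsph1, Dnajb1 and Hspb1 (log axis), with 1 lettered point for each of the 15 libraries compared and colours for the 4 groups. After 1 h at 40 °C Plk2 was lower in replicates A and C, which had the higher sums, and at 42.5 °C it was lower in replicates B and D, which had the higher sums there.

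Plk3 (ENSCGRG00001010394), a related stress-responsive kinase, had means of 19.8 ± 1.93 CPM at 37 °C (SD, n = 3), and in the heated groups of 21.5 ± 2.49 after 1 h and 16.8 ± 1.88 after 6 h at 40 °C and 17.9 ± 2.44 after 42.5 °C (SD, n = 4 each). Against 37 °C its log2 fold changes of 0.12, -0.24 and -0.16 did not pass (adjusted p of 0.628, 0.0837 and 0.254). It was lower after 6 h than after 1 h at 40 °C (-0.35, SE 0.10, adjusted p = 0.0218), below the fold threshold and not past the adjusted p without 40 °C for 1 h replicate A or C or 40 °C for 6 h replicate D, with 23.4, 21.3, 23.1 and 17.99 CPM after 1 h and 17.6, 18.6, 17.1 and 14.2 CPM after 6 h.

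Aen (ENSCGRG00001021559) encodes an exonuclease that takes part in the fragmentation of DNA during apoptosis. It was at 69.9, 76.5 and 83.7 CPM at 37 °C and at 59.1, 62.2, 65.1 and 53.8 CPM after 1 h at 40 °C. After 6 h at 40 °C it was at 39.8, 40.2, 39.5 and 36.7 CPM, and at 42.5 °C at 55.4, 67.0, 58.8 and 53.4 CPM. The libraries at 40 °C for 6 h lay below all others, and both 1 h treatments, which overlapped with each other, lay below the 3 controls. Replicate D, at 67.5 CPM, lay just above the highest of the heated libraries.

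The mean of Aen was 76.7 ± 6.90 CPM at 37 °C (SD, n = 3) and 60.1 ± 4.84, 39.0 ± 1.61 and 58.6 ± 6.00 CPM in the heated groups (SD, n = 4 each). At 40 °C, as a description, it was 1.27-fold lower after 1 h (log2 fold change -0.34, SE 0.069) and 1.96-fold lower after 6 h (-0.97, SE 0.066), and -0.31 and -0.93 with all 4 controls. At 42.5 °C, where the same controls were used, it fell 1.31-fold (-0.39, SE 0.075, adjusted p = 0.000748), less than the fold threshold, and -0.34 with all 4 controls (adjusted p = 0.0366).

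Between the heated groups, Aen was 1.54-fold lower after 6 h than after 1 h at 40 °C (-0.62, SE 0.064). Between 42.5 °C and 40 °C for 1 h it differed by -0.04 (SE 0.072), and it was 1.49-fold higher at 42.5 °C than at 40 °C for 6 h (0.58, SE 0.070). These are descriptions with no test, since the 40 °C libraries helped to choose the gene. The order of the means thus differed between the 2 genes that chose the set, since Plk2 was lowest at 42.5 °C and Aen at 40 °C for 6 h.

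Sesn1 (ENSCGRG00001004292) encodes a sestrin, a protein that restrains the growth kinase complex mTORC1. It was at 38.7 ± 1.74 CPM at 37 °C (SD, n = 3) and at 40.2 ± 2.68, 44.4 ± 4.56 and 37.9 ± 1.31 CPM in the heated groups (SD, n = 4 each). No heated group passed against 37 °C (log2 fold changes of 0.06, 0.20 and -0.03, adjusted p of 0.732, 0.0542 and 0.739). After 6 h at 40 °C Sesn1 did pass by adjusted p alone in 4 of 15 fits. It was lower at 42.5 °C than at 40 °C for 6 h (-0.23, SE 0.072, adjusted p = 0.0135), below the fold threshold, and did not pass without 40 °C for 6 h replicate C or D (adjusted p of 0.0505 and 0.052).

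Zmat3 (ENSCGRG00001012339), a zinc finger protein that binds RNA, was at 9.58, 10.9 and 10.9 CPM at 37 °C. It was at 10.5, 9.94, 9.71 and 10.6 CPM after 1 h at 40 °C, at 11.5, 11.6, 13.4 and 11.2 CPM after 6 h, and at 8.01, 10.1, 8.65 and 10.1 CPM at 42.5 °C. The libraries at 40 °C for 6 h lay above all others. Against 37 °C its log2 fold changes were -0.02, 0.20 and -0.17 (adjusted p of 0.942, 0.176 and 0.237), and with all 4 controls that at 42.5 °C was 0.07 (adjusted p = 0.885). The comparison of 42.5 °C with 40 °C for 6 h, in which no control library enters, gave -0.37 (SE 0.11, adjusted p = 0.00978), below the fold threshold.

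The 3 comparisons between heated groups do not use the controls but share heated libraries with each other. Plk2 and Aen, chosen by 40 °C libraries, are left out of the counts here. Between 42.5 °C and 6 h at 40 °C, 1 of the other 7 genes was called (Btg2, higher), where 8.25% of 10427 genes tested were called, 2.53% higher and 5.72% lower. By adjusted p alone 5 of the 7 passed, namely Btg2, Cdkn1a and Mdm2 as higher and Zmat3 and Sesn1 as lower, where 47% of all tested genes passed, 22.5% higher and 24.5% lower. Between 42.5 °C and 40 °C for 1 h, both treatments of 1 h, 1 of the 7 was called, Btg2 as higher, beside 5.27% of 10441 genes (1.75% higher, 3.51% lower). By adjusted p alone 1 passed, also Btg2, beside 36.1% of all tested genes (16.4% higher, 19.6% lower). Mdm2, Plk3 and Cdkn1a did not pass in the reported fit. By adjusted p alone Mdm2 passed in 6 of 15 fits, Plk3 in 3 and Cdkn1a in 1. Between 6 h and 1 h at 40 °C, edgeR and DESeq2 each called 0 of the 7. Beside this, edgeR called 1.28% of 10439 genes (0.556% higher, 0.728% lower) and DESeq2 120 genes. At an unadjusted p under 0.05 there were 4 of the 7, with no share of all tested genes given at that p. By adjusted p alone 1 of the 7 passed, Plk3 as lower, beside 18.5% of all tested genes (9.45% higher, 9.04% lower).

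**Figure D4:**
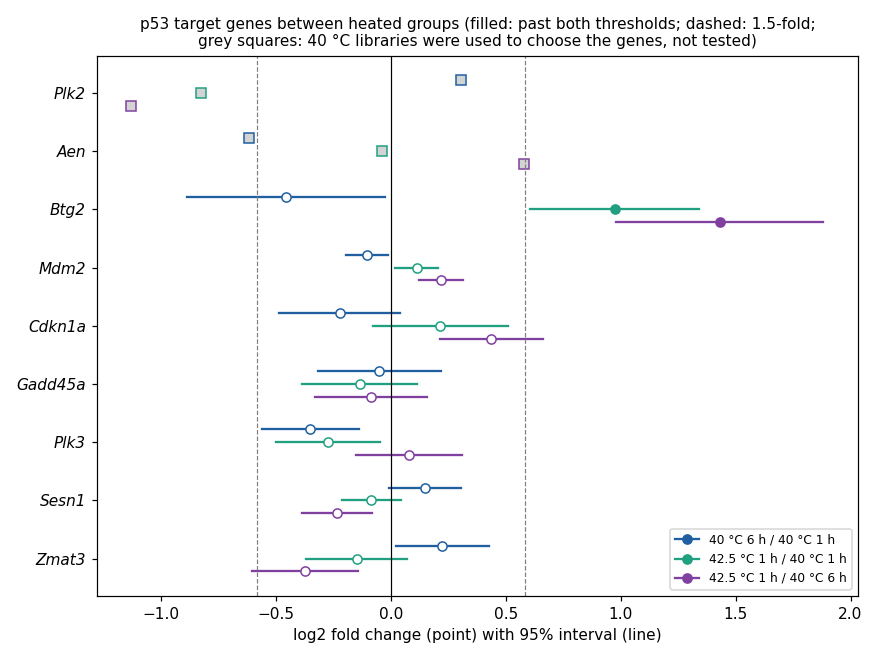
Log2 fold change of each p53 target gene between heated groups (points) with its 95% interval (lines), where filled points passed both thresholds, dashed lines mark 1.5-fold, and grey squares are the values of Plk2 and Aen, which were chosen by 40 °C libraries and were not tested. At 42.5 °C against 1 h and 6 h at 40 °C, Plk2 lay at -0.83 and -1.13 and Btg2 at 0.97 and 1.43.

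Across the 15 libraries the targets did not all move together. The highest pairwise Pearson's r of log2 CPM was 0.73 (Mdm2 and Btg2) and the lowest -0.77 (Mdm2 and Zmat3), values that hold the differences between groups and share each library's scaling. Within groups, after subtracting group means, the same pairs stood at -0.22 and -0.29, and Mdm2 and Aen at 0.63.

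By the likeness of their pattern over the 15 libraries, among 8483 genes with a mean of at least 10 CPM, Plk2 was nearest to Zfp512b (r = 0.97, 0.89 within groups), Wdr6 and Helb (both 0.96). Aen was nearest to Hps1, Ncdn and Rad51d (0.95 each), of which Ncdn also stood at 0.82 within groups and Hps1 and Rad51d at 0.33 and 0.41. Mdm2 was nearest to Taf4b (0.95), Msn (0.94) and Ddx3x (0.93), and Cdkn1a to Utp15 (0.84), Ssr1 (0.83) and C1d (0.82). These are descriptions chosen as the highest of many.

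The wider pathway was taken from lists written from general knowledge, with 63 other p53 targets (54 found by name, 44 tested), 19 regulators of p53 (15 found and tested) and 22 relatives of the 10 genes (21 found, 17 tested). After 1 h at 40 °C, 0 of the 44 other targets were called by edgeR and 0 by DESeq2. Beside this, edgeR called 0.334% of all tested genes (0.276% higher, 0.0572% lower) and DESeq2 31 of 10494. Of the 44, 11 had an unadjusted p under 0.05, with no share of all tested genes given at that p. By adjusted p alone 1 was higher (Lif, 0.42) and 3 were lower (Sesn2, -0.53, Thbs1, -0.32, and the caspase Casp8, -0.26, the last named after its value was seen), beside 1.07% and 0.572% of all tested genes. With all 4 controls Lif, Sesn2, Thbs1 and Casp8 did not pass (adjusted p of 0.346, 0.188, 0.929 and 0.217). The median log2 fold change of the 44 targets was -0.01, with 0.00 over all tested genes. At 40 °C for 6 h 0 were called higher and 3 lower, beside 1.45% and 1.66% of all tested genes (median -0.02, all genes 0.00). At 42.5 °C 2 were called higher and 4 lower, beside 2.83% and 4.68% (median -0.05, all genes 0.00). By adjusted p alone 5 of the 44 were higher and 6 lower at 6 h, beside 14.7% and 14.8% of all tested genes, and 8 were higher and 14 lower at 42.5 °C, beside 20.8% and 22.3%.

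After 6 h at 40 °C the 3 lower targets were Thbs1, Sesn2 and Lif. Thbs1, a secreted matrix glycoprotein that restrains angiogenesis, fell from 108 ± 3.14 CPM (SD, n = 3) to 57.8 ± 9.26 CPM (SD, n = 4), on the log2 scale -0.90 (SE 0.086, adjusted p = 2.23e-06), or -0.72 with all 4 controls (adjusted p = 0.041). Sesn2, the sestrin paralog of Sesn1, fell from 10.7 ± 1.51 to 6.40 ± 0.05 CPM (-0.72, SE 0.12, adjusted p = 0.000345). After 1 h Sesn2 was lower by less than 1.5-fold (-0.53, SE 0.12, adjusted p = 0.0332), and with all 4 controls it did not pass there (adjusted p = 0.188). Lif, a cytokine of the interleukin-6 family, fell from 142 ± 13.5 to 88.3 ± 6.18 CPM (-0.68, SE 0.066, adjusted p = 2.23e-06) and with all 4 controls came short of the fold (-0.56, adjusted p = 0.0254). After 1 h Lif was at 189 ± 28.2 CPM (SD, n = 4), so that between 6 h and 1 h it differed by -1.10 (SE 0.085, adjusted p = 1.04e-06).

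At 42.5 °C the called targets of apoptosis went both ways. Bbc3, the BH3-only protein PUMA, fell from 5.22 ± 0.10 to 2.62 ± 0.92 CPM (-1.01, SE 0.20, adjusted p = 0.00088), and Triap1, an inhibitor of apoptosis, from a mean of 7.81 to one of 5.18 ± 0.61 CPM (-0.60, SE 0.14, adjusted p = 0.00276), a call lost without 37 °C replicate B or 42.5 °C replicate D. Bcl2l11, the BH3-only protein BIM, rose from 13.8 ± 0.46 to 21.2 ± 3.12 CPM (0.62, SE 0.11, adjusted p = 0.000351), a call lost without 42.5 °C replicate C. After 6 h at 40 °C Bcl2l11 was at 20.6 ± 0.76 CPM (SD, n = 4), short of the fold (0.58, SE 0.084, adjusted p = 9.51e-05), and it was called in 4 of 15 fits, with all 4 controls and without 37 °C replicate B or C or 40 °C for 6 h replicate A. Between 42.5 °C and 6 h at 40 °C it differed by 0.04 (SE 0.096, adjusted p = 0.782). Bax, the pore-forming effector, did not pass in any heated group (-0.13, -0.11 and 0.07, adjusted p of 0.278, 0.235 and 0.364).

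In the other roles, Cpt1c, a neuronal form of carnitine palmitoyltransferase, fell from 6.75 ± 0.69 to 2.26 ± 0.42 CPM at 42.5 °C (-1.57, SE 0.17, adjusted p = 2.77e-06). Gtse1, a protein of G2 and S phase that binds p53, fell from 122 ± 0.37 to 77.4 ± 5.39 CPM (-0.65, SE 0.052, adjusted p = 1.97e-07). Polk, a DNA polymerase that copies past damaged bases, rose from 35.5 ± 1.71 to 56.7 ± 6.79 CPM (0.67, SE 0.081, adjusted p = 1.1e-05). All 6 targets called at 42.5 °C were called with all 4 controls as well.

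**Figure D5:**
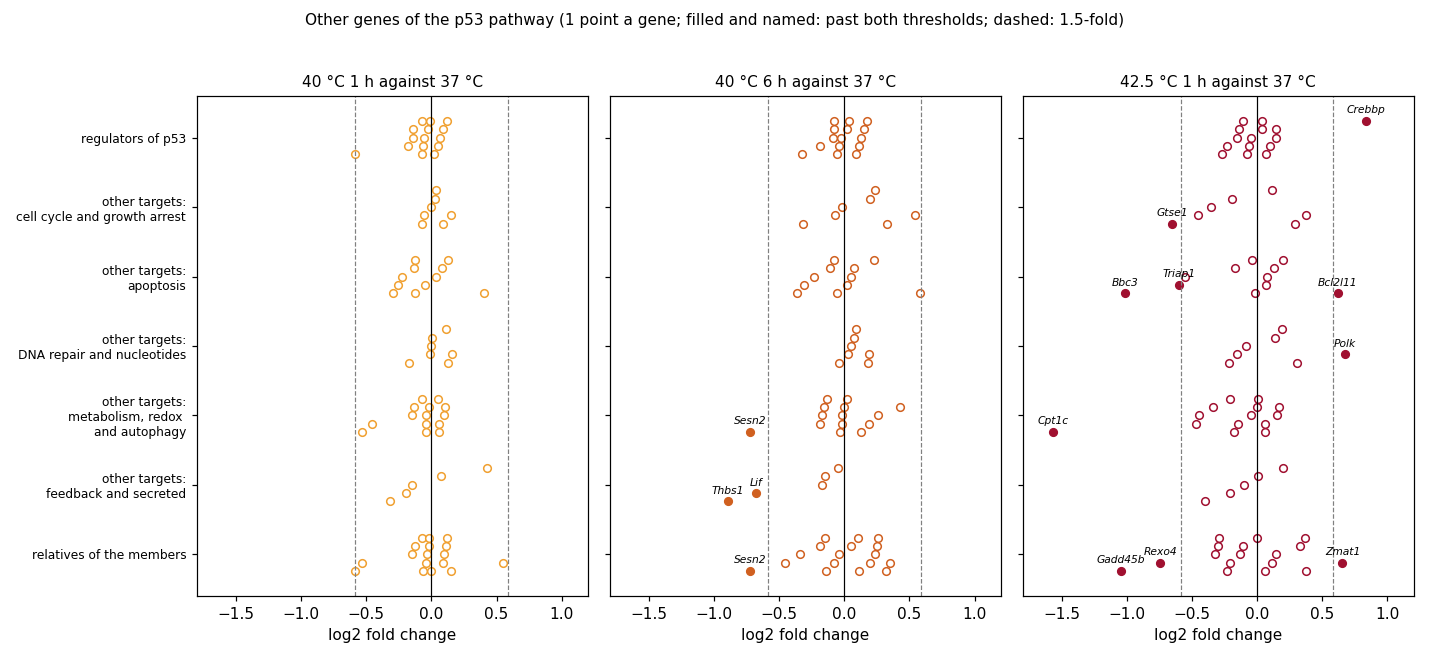
Log2 fold change against 37 °C of the other genes of the p53 pathway in the 3 heated groups (1 panel a group, 1 point a gene and list, genes grouped by role, with 5 genes, among them Sesn2 and Mdm4, in 2 lists), where filled and named points passed both thresholds and dashed lines mark 1.5-fold. No gene was called at 40 °C for 1 h, Thbs1, Lif and Sesn2 were called lower at 40 °C for 6 h, and genes were called in both directions at 42.5 °C.

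Among the regulators, the acetyltransferase Crebbp rose at 42.5 °C from 21.3 ± 0.79 to 37.9 ± 3.97 CPM (0.83, SE 0.083, adjusted p = 1.71e-06) and was the 1 called of 15, beside 7.51% of all tested genes (2.83% higher). At 40 °C 0 of 15 were called at either time by edgeR, beside 0.334% and 3.11% of all tested genes after 1 h and 6 h. DESeq2 called 1 and 0 of them, beside 31 of 10494 and 267 of 10499 genes. At an unadjusted p under 0.05 there were 4 and 5, with no share of all tested genes given at that p. Mdm4, the relative of Mdm2 that binds and restrains p53, had log2 fold changes of -0.59 (adjusted p = 0.0662), -0.19 and -0.11 and did not pass by edgeR. The first of these, after 1 h at 40 °C, was called in 4 of 15 fits, with DESeq2, with no filter, in 1 fit over all groups and without 40 °C for 1 h replicate A.

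Of the 17 relatives tested, 1 was called higher and 2 lower at 42.5 °C, beside 2.83% and 4.68% of all tested genes. After 6 h at 40 °C 0 were called higher and 1 lower (Sesn2, also among the targets), beside 1.45% and 1.66%. After 1 h there 0 were called by edgeR, beside 0.334%, and 1 by DESeq2 (Mdm4, also among the regulators), beside 31 of 10494 genes. Gadd45b, of the same family as Gadd45a, fell at 42.5 °C from 16.0 ± 2.11 to 7.72 ± 0.34 CPM (-1.05, SE 0.11, adjusted p = 2.92e-06). Rexo4, an exonuclease-domain relative of Aen, fell from 38.4 ± 1.25 to 22.8 ± 1.69 CPM (-0.74, SE 0.071, adjusted p = 1.04e-06). Zmat1 was called higher at a low level (0.65, SE 0.23, adjusted p = 0.0281) but not with all 4 controls (adjusted p = 0.0591), and was called in 10 of 15 fits. Ccng2, the paralog of the unfound Ccng1, had log2 fold changes of -0.15, -0.15 and -0.21 and did not pass (adjusted p of 0.648, 0.502 and 0.241).

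List genes were also called between heated groups, in comparisons that share the libraries at 42.5 °C. At 42.5 °C against 1 h at 40 °C, 1 of the 44 other targets was called higher and 3 lower. Of the 17 relatives 2 were higher and 3 lower, beside 1.75% and 3.51% of all tested genes. Against 6 h, 2 targets were higher and 4 lower, and 2 relatives higher and 3 lower, beside 2.53% and 5.72%. Of the 15 regulators 1 was called in each comparison, as higher, and some genes stand in 2 lists. Against 1 h and 6 h at 40 °C, Cpt1c was lower after 42.5 °C by log2 fold changes of -1.66 and -1.997, Gadd45b by -1.04 and -0.71, Bbc3 by -0.72 and -1.07 and Rexo4 by -0.68 and -0.997, all called. Crebbp was higher (0.82 and 0.80), as were Sesn2 (0.59 and 0.78) and Zmat1 (0.73 and 1.10), all called. Of these, Sesn2 did not pass at 42.5 °C against 37 °C (0.06, adjusted p = 0.793). It was below 37 °C after 1 h and 6 h at 40 °C (-0.53 and -0.72). Against 1 h at 40 °C the call of Sesn2 held in 11 of 15 fits and was lost without 40 °C for 1 h replicate D or 42.5 °C replicate C or D, that of Zmat1 in 13, lost without 40 °C for 1 h replicate D or 42.5 °C replicate C, and that of Bbc3 in 14, lost without 42.5 °C replicate D. Gtse1 was called against 1 h (-0.65) and, at the edge of 1.5-fold, against 6 h (-0.59, called in 8 of 15 fits). Polk was called against 6 h (0.64) and missed the fold against 1 h (0.55). Tob2, an antiproliferative relative of Btg2, was lower at 42.5 °C than in both 40 °C groups (-0.87 and -0.65, adjusted p of 0.00108 and 0.00554), and Bcl6, a transcriptional repressor, was lower than at 40 °C for 6 h (-0.69, adjusted p = 0.000652). Neither passed at 42.5 °C against 37 °C (-0.33 for Tob2 and -0.36 for Bcl6, adjusted p of 0.193 and 0.0611). After 1 h and 6 h at 40 °C against 37 °C, Tob2 was at 0.55 and 0.32 (adjusted p of 0.096 and 0.138). Bcl6 was at 0.33 after 6 h (adjusted p = 0.0263).

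In the RefSeq annotation of another Chinese hamster assembly, 4 of the 9 genes (Mdm2, Gadd45a, Sesn1 and Zmat3) overlap another annotated gene. These overlaps are of whole genes from start to end, and neither exons nor the annotation used for counting were looked at. Whether reads were counted by strand is not given in the sources used here. It is therefore not known whether reads of overlapping neighbours enter the counts of these genes.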

How the data were processed

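With CLC Genomics Workbench, the authors trimmed and mapped the reads (genome CHOK1GS_HDv1), counted them, and deposited whole-number read counts per gene and library without normalization. The annotation release, strandedness and treatment of multi-mapping reads are not given in the sources used here. Genes were matched by name with case ignored, and 4423 genes listed by identifier only were not named. The members, lists, tests and alternatives were chosen with earlier results of these data known.

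Groups were taken from the sample labels. The 15 libraries that the study used were compared, leaving out 37 °C replicate D, which was added back as an alternative. The 2 groups of each comparison were fitted with the quasi-likelihood test of edgeR 4.0.16 (R 4.3.3, limma 3.58.1) on counts, with filterByExpr, TMM scaling and Benjamini-Hochberg adjustment over all tested genes. Adjusted p values in the text come from this test. The biological coefficient of variation was 0.049 to 0.056. Correlations used log2 CPM with a prior count of 2, except those of the p53 targets with the summed heat shock protein genes, which used log2 of CPM. The ranking over 8483 genes was a separate calculation, in which Plk2 stood at -0.9212 in place of -0.9210.

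Genes named are the 9 members, list genes called in at least 1 comparison, Trp53, Mdm4, Bax, Sesn2, Gadd45b and Ccng2, the 3 genes most alike to each of 4 members, markers, and Casp8, chosen after its value was seen. Alternatives were DESeq2 1.42.0 (size factors, Wald test), no filter, at least 10 counts in every library, a block for the replicate letter, 1 joint fit of all groups, all 4 controls, adjusted p alone, and each library left out. Figures were drawn with matplotlib 3.10.9. Sequences were not used here, and gene coordinates were used only for the overlaps in the RefSeq annotation of another assembly.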

Additional observations from a re-analysis of the deposited data

Results flagged for a closer look

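In 36 groups of 4 libraries (9 genes in 4 groups), 3 held a library set apart from the other 3 by Dixon's criterion (the gap to the nearest other library over the group's range), and chance alone gives about 1 in 20. Cdkn1a was at 44.0 CPM in 40 °C for 1 h replicate C (0.872 of the group's range), Zmat3 at 13.4 CPM in 40 °C for 6 h replicate C (0.831), and Mdm2 at 126 CPM in 37 °C replicate D (0.885), the control library left out of the comparisons.

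Direct tests between heated groups called differences for 1 of the 7 genes that were not chosen by 40 °C libraries. At 42.5 °C, Btg2 differed by 0.97 on the log2 scale from 40 °C for 1 h and by 1.43 from 40 °C for 6 h, where 5.27% and 8.25% of all tested genes were called.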

How the results depend on the processing

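Of 616 alternative values for the 44 log2 fold changes of the p53 targets (leaving out those of Plk2 and Aen that use 40 °C libraries), 595 kept their direction and side of the thresholds, 3 passed them where the reported value did not, and 18 changed sign, all of them for fold changes of under 1.5 that were called under no alternative. With all 4 controls the sign changes were Zmat3 at 42.5 °C (0.0743 in place of -0.17), and Mdm2 and Zmat3 after 1 h at 40 °C (0.0679 and 0.217). With each library left out the log2 fold change was -0.17 to 0.0134 for Btg2, -0.14 to 0.0939 for Gadd45a and -0.0855 to 0.00755 for Zmat3 after 1 h at 40 °C, -0.19 to 0.0425 for Gadd45a after 6 h there and -0.15 to 0.0425 between 6 h and 1 h and -0.22 to 0.0758 for Cdkn1a at 42.5 °C. The cause was not tested. The untested difference of Aen between 42.5 °C and 40 °C for 1 h was -0.10 to 0.0104. At 40 °C for 1 h against 37 °C, the 35 genes called became 3 with all 4 controls and 172 with adjusted p alone, and 23 to 56 with each library left out (23 without 40 °C for 1 h replicate C, 56 without replicate B). The counts of p53 targets that follow hold Plk2 and Aen, which chose the set, and nothing is read from them where 40 °C libraries enter. After 1 h at 40 °C the count was 2 with adjusted p alone. With adjusted p alone there were 3091 genes and 4 p53 targets at 40 °C for 6 h and 4510 genes at 42.5 °C, 3767 genes at 42.5 °C against 40 °C for 1 h, 4904 genes and 7 p53 targets against 40 °C for 6 h, and 1931 genes and 3 p53 targets between 6 h and 1 h. At 40 °C for 6 h against 37 °C the count of p53 targets was 1 to 2 with each library left out (2 without 37 °C replicate A or B or 40 °C for 6 h replicate B or D), and between 6 h and 1 h it was 0 to 1 (0 without 40 °C for 1 h replicate C). Among the list genes, the calls of Bbc3, Sesn2 and Zmat1 between 42.5 °C and 40 °C for 1 h held in 14, 11 and 13 of 15 fits, and those of Polk, Gadd45b and Tob2 between 42.5 °C and 40 °C for 6 h in 14 each, each missing fit but 1 (Sesn2, under the block) being one with a library left out.

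The replicate letters are not stated to mark shared cultures. Same-letter libraries of different groups correlated, after subtracting group means over 10638 genes, with a mean r of 0.05 (21 pairs, -0.05 to 0.18) and different-letter libraries with -0.02 (63 pairs), and 5 of 15 libraries correlated best with their own letter. With the letter as a replicate block, 48, 333 and 717 genes were called against 37 °C in place of 35, 326 and 786, and 546, 858 and 138 between heated groups in place of 550, 860 and 134. The count of p53 targets at 40 °C for 6 h was 2 in place of 1. These 2 were Aen and Plk2, which chose the set, so nothing is read from this count. With the block Cdkn1a passed by adjusted p after 1 h at 40 °C (-0.29, adjusted p = 0.00447), as did Mdm2 at 42.5 °C against 37 °C and against 40 °C for 1 h (0.11 each, adjusted p of 0.0221 and 0.0362) and Plk3 in the latter (-0.27, adjusted p = 0.0172), and Gadd45a was at 0.0770 after 1 h and 0.0361 after 6 h at 40 °C against 37 °C. The block also ended the calls of Bcl2l11 and Triap1 at 42.5 °C against 37 °C and of Sesn2 against 40 °C for 1 h, where the adjusted p stayed at 2.31e-05, 0.00648 and 0.00611 and the fold fell short of 1.5. Among the 9 p53 targets Btg2 had the fewest reads, 18 to 76 a library, and of the list genes Zmat1 had 12 to 36.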
